A study of Mus musculus with 4 samples.

Results

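The tubulins and the enzymes that modify them were examined in cardiomyocytes of the pressure-loaded mouse heart. Members were chosen by symbol: every numbered alpha-, beta- and gamma-tubulin gene (Tuba, Tubb and Tubg), the tubulin tyrosine ligase Ttl and its relatives (Ttll), Vash1, Vash2, Svbp, Map4, Mapt and Stmn1. This gave 37 genes of the 22322 in the files, and 25 of them had enough counts to be tested. RNA-seq had been performed on cardiomyocytes from adult male mice, with 2 sham-operated libraries (sham 1 and sham 2) and 2 libraries from mice with transverse aortic constriction (TAC 1 and TAC 2), an operation that narrows the aorta so that the left ventricle pumps against a higher pressure. The study's methods describe isolation of the myocytes with a Langendorff perfusion system weeks after surgery, and each sample held part of the myocytes of 1 mouse heart. The labels give no strain, genotype or drug, and nothing says that the groups differed in anything but the operation.

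Microtubules are hollow filaments built from dimers of alpha- and beta-tubulin, and gamma-tubulin sits in the complexes that start them. Most alpha-tubulin genes encode a tyrosine as the last residue. The vasohibins Vash1 and Vash2, together with their small partner Svbp, cut this tyrosine off, and Ttl puts it back on free tubulin dimers. The Ttll enzymes add chains of glutamate or glycine to tubulin tails. In cardiomyocytes, microtubules run along and between the myofibrils, carry cargo, and resist shortening when their tubulin is detyrosinated, a state known to be raised in failing hearts.

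The ends of the coding sequences are shown because the measured alpha-tubulin genes differ there in whether they encode the final tyrosine. In the main test the genes that passed were those without that codon, but this holds only with Tuba4a called, and its call was kept in 6 of 13 alternatives and lost under total-count scaling. These are the last 60 coding bases of Tuba4a, Tuba8 and Tuba1c, read 5′ to 3′ on the coding strand, with the last codon before the stop in capitals (GENCODE M21, GRCm38). All lie in coding exon sequence.
Tuba4a, chr1:75215622-75215681, minus strand: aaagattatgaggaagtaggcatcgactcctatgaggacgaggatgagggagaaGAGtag
Tuba8, chr6:121226020-121226079, plus strand: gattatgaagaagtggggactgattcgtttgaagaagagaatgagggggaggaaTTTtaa
Tuba1c, chr15:99037950-99038009, plus strand: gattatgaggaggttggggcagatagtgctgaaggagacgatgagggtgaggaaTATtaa
The last codon of Tuba4a, GAG, is one for glutamate, and that of Tuba8, TTT, is one for phenylalanine. Tuba1c ends in TAT, a codon for tyrosine, and Tuba1a and Tuba1b also end in a tyrosine codon. Tuba3a and Tuba3b, which were too low to test, also end in a tyrosine codon, so that 5 of the 7 alpha-tubulin genes have one.

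The expected counts of the 4 libraries summed to between 24237777 and 32118323. Mitochondrial genes took 39.84% to 40.85% of them in sham 1, sham 2 and TAC 2, and 47.42% in TAC 1. The load genes Nppa, Nppb, Myh7 and Acta1 were all higher in both TAC libraries, and TAC 1 stood above TAC 2 in Myh7, at 1481 against 698 CPM. CPM are counts brought to a common library size over the tested genes, scaled by the trimmed mean of M values (TMM), which sets the bulk of genes equal between libraries. The 12 cardiomyocyte markers, led by Myh6, summed to between 78077 and 86975 CPM in every library, and none of them was called. Their log2 fold changes had a median of 0.06 but ran from -0.38 (Ryr2) to 0.41 (Myl2). Both TAC libraries lay above both sham libraries for 5 of these 12 markers and below them for 3, against 29.8% and 30.3% of all tested genes. Of 72 markers of endothelial cells, fibroblasts, leukocytes, mural cells, nerve and dividing cells, 59 were tested, 10 were lower in TAC and 0 higher (edgeR, adjusted p under 0.05), and the median log2 fold change of those tested was -0.73. The count of 10 became 2 without TAC 1, 34 without sham 2 and 37 without TAC 2.

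Of the 25 tested members, 6 rose under TAC and 0 fell, by edgeR's quasi-likelihood test with a Benjamini-Hochberg adjusted p under 0.05 over 12499 genes. The 6 were the alpha-tubulins Tuba8 and Tuba4a, the beta-tubulins Tubb2a and Tubb4b, the glutamate ligase Ttll7 and Mapt, the gene of tau. Over all genes, 5.01% were called, 2.58% as higher and 2.43% as lower. The median log2 fold change of the tested members was 0.20, against -0.01 over all tested genes, and 11 of the 25 had an unadjusted p under 0.05, as did 27.5% of all genes. Both TAC libraries lay above both sham libraries for 14 of the 25 members, where 29.8% of all tested genes did so, and below them for 4, where 30.3% of all tested genes did so. In bulk RNA, a change in the number of cells of a type and a change in RNA per cell cannot be told apart.

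How the libraries were scaled set how many of the 6 were called. The study scaled by total counts. On that scale the median of all genes moved to -0.20 and that of the members to 0.03, 0.84% of all genes were called higher, and Tubb2a and Tuba8 were the members that remained called. Their calls held in all 13 alternatives run, among them a crossed pairing added after the data were seen. All 6 genes kept a positive fold change in each alternative. Without TAC 1, the library with the larger mitochondrial share, these same 2 genes were again the called ones.

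**Figure D1:**
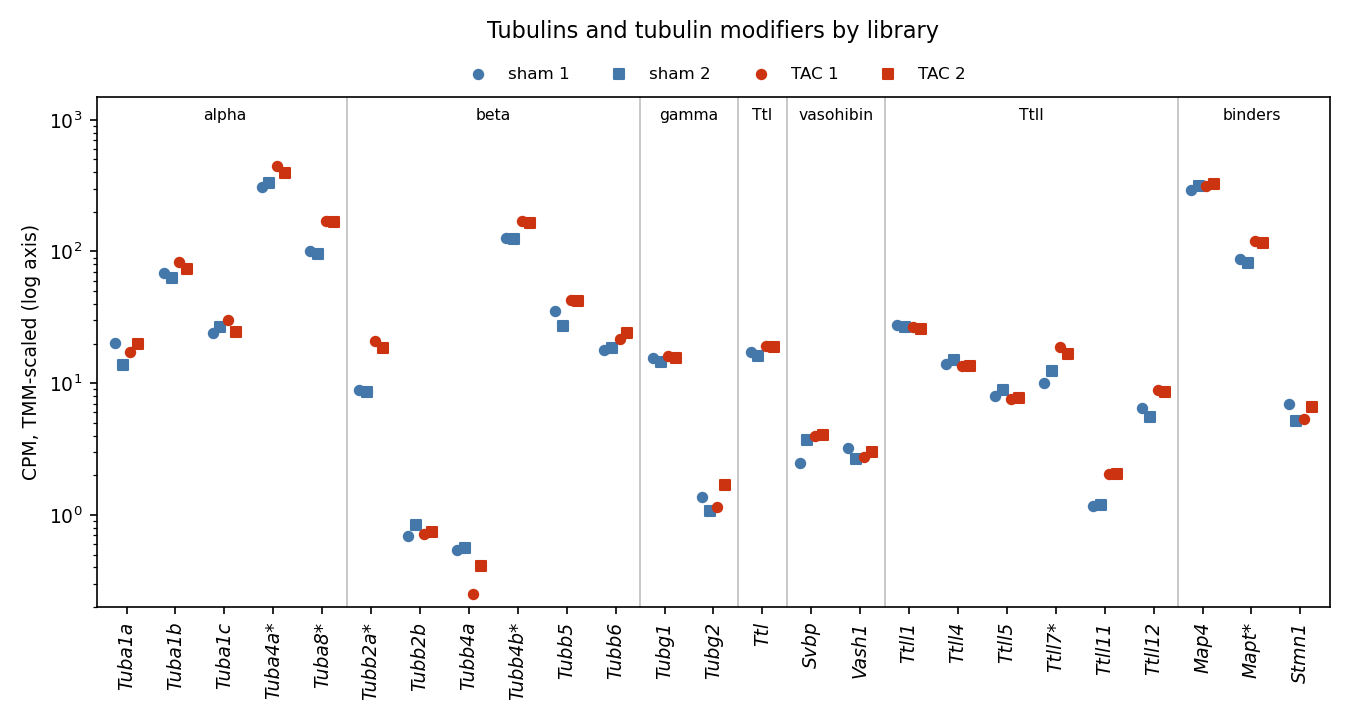
CPM (TMM-scaled, log axis) of the 25 tested members in each library, grouped by role, with sham in blue and TAC in red, and an asterisk for the 6 called genes. For Tubb2a, both TAC libraries (20.8 and 18.6 CPM) stand clear of both sham libraries (8.91 and 8.62 CPM), whereas the libraries of Tuba1a and Stmn1 are mixed.

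Tuba4a, the alpha-tubulin with the most RNA per length, had 308 and 329 CPM in sham 1 and 2, and 444 and 392 CPM in TAC 1 and 2. Both TAC libraries were above both sham libraries, and they differed from each other by more than the sham libraries did. The log2 fold change was 0.39 ± 0.09 (SE), a 1.31-fold rise, with an edgeR adjusted p of 0.0498, just inside the threshold. The call was lost under total-count scaling (0.20, adjusted p = 0.311), total counts without mitochondrial genes (0.29, adjusted p = 0.0682) and both limma fits on FPKM (0.20 in each, adjusted p = 0.291 and 0.289). It was also lost, at similar fold changes, without sham 1 (0.35, adjusted p = 0.126), without TAC 1 (0.30, adjusted p = 0.168) and with the replicate number as a block (0.39, adjusted p = 0.0759). The gene (ENSMUSG00000026202, chr1:75214228-75219865) shares exon bases with Stk16 on the other strand, and Stk16 had 9.87 to 11.3 CPM.

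Tuba8, an alpha-tubulin known from heart, skeletal muscle and testis, stood at 101 and 96.3 CPM in sham 1 and 2, and at 170 and 168 CPM in TAC 1 and 2. The libraries of each group lay close together and the groups were far apart. Its log2 fold change was 0.78 ± 0.07 (SE), a 1.71-fold rise, with an edgeR adjusted p of 0.00445. Under total-count scaling it was 0.59 (adjusted p = 0.0335), and the alternatives gave adjusted p-values of 1.35e-12 to 0.0497. Tuba8 (ENSMUSG00000030137, chr6:121210696-121226854) overlaps the annotated antisense gene Gm15856.

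The 3 measured alpha-tubulin genes with a tyrosine codon at the end did not pass the test. Tuba1b, the most abundant of them, had 68.3 and 62.9 CPM in sham 1 and 2 and 82.7 and 74.1 in TAC 1 and 2. The groups did not overlap, but the difference missed the threshold (log2 fold change 0.26 ± 0.09, edgeR adjusted p = 0.115). Tuba1a had 20.1 and 13.7 CPM in the sham libraries and 17.4 and 19.8 in the TAC libraries, with both TAC values between the sham values (0.14 ± 0.18, edgeR adjusted p = 0.65). Its value rested on which sham library was kept, at 0.44 without sham 1 and -0.10 without sham 2. Tuba1c had 23.9, 26.9, 30.1 and 24.6 CPM in the same order, and its groups overlapped too (0.11 ± 0.12, edgeR adjusted p = 0.602). Under total-count scaling the fold changes of Tuba1a and Tuba1c turned to -0.05 and -0.09, also not called.

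These 3 genes lie together on chromosome 15 and are hard to tell apart by short reads. Their coding sequences are 97.1% to 98.3% identical, and their expected counts were not whole numbers. Tuba1a and Tuba1b also share exon bases with the protein-coding gene Gm49450 on the same strand, and the sum of the 3 genes was still not whole in sham 2, at 2979.71, so fragments had been divided in that library with other genes too. Summed to 1 feature, an alternative added after the data were seen, they had 112 and 104 CPM in the sham and 130 and 119 CPM in the TAC libraries, and differed by 0.20 ± 0.08 on the log2 scale (edgeR adjusted p = 0.163). Tuba4a and Tuba8 are 80.9% identical to each other, with no shared run longer than 38 bases. Tuba8 had whole counts in every library, Tuba4a did not.

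To set the genes of a family side by side, FPKM values (fragment counts scaled by transcript length and library size) were used, since these account for length. Tuba4a made up 60.3% and 63.2% of the summed alpha-tubulin FPKM in sham 1 and 2, and 61% and 59.8% in TAC 1 and 2. Its share overlapped between the groups. Tuba8 took 16.6% and 15.7% in the sham libraries and 19.9% and 21.3% in the TAC libraries, with no overlap. Lower in both TAC libraries were the shares of Tuba1b (14.5% and 13.3% in sham, 12.5% and 12.2% in TAC) and Tuba1c (4.48% and 4.99% in sham, 4.01% and 3.55% in TAC). Shares within a family are parts of the same sum, so their movements are tied to each other. The order of levels was Tuba4a, then Tuba8 and Tuba1b, then Tuba1c and Tuba1a. Tuba8 and Tuba1b lay near each other in the sham libraries (49 and 44.3 against 43 and 37.5 FPKM) and apart in the TAC libraries (65.3 and 75 against 41.2 and 42.9 FPKM).

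Counted by their last codon, the genes without a tyrosine codon (Tuba4a and Tuba8) made up 76.8% and 78.9% of alpha-tubulin FPKM in sham 1 and 2, and 80.9% and 81.1% in TAC 1 and 2. The mean was 77.9% ± 1.46 (SD, n = 2) in sham and 81% ± 0.137 (SD, n = 2) in TAC, a difference of 3.11 percentage points. Within the group Tuba8 differed by 4.47 points and Tuba4a by -1.35, and the value of Tuba4a was -2.83 without sham 1 and 0.125 without sham 2. Summed FPKM of these genes was 227 and 223 in the sham libraries and 266 and 286 in the TAC libraries. Summed FPKM of the genes with a tyrosine codon was 68.5 and 59.6 in the sham libraries and 62.8 and 66.7 in the TAC libraries, which overlapped. This grouping was made after the values were seen and no test was applied. An exact permutation test of 2 libraries against 2 cannot go below p = 0.333.

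**Figure D2:**
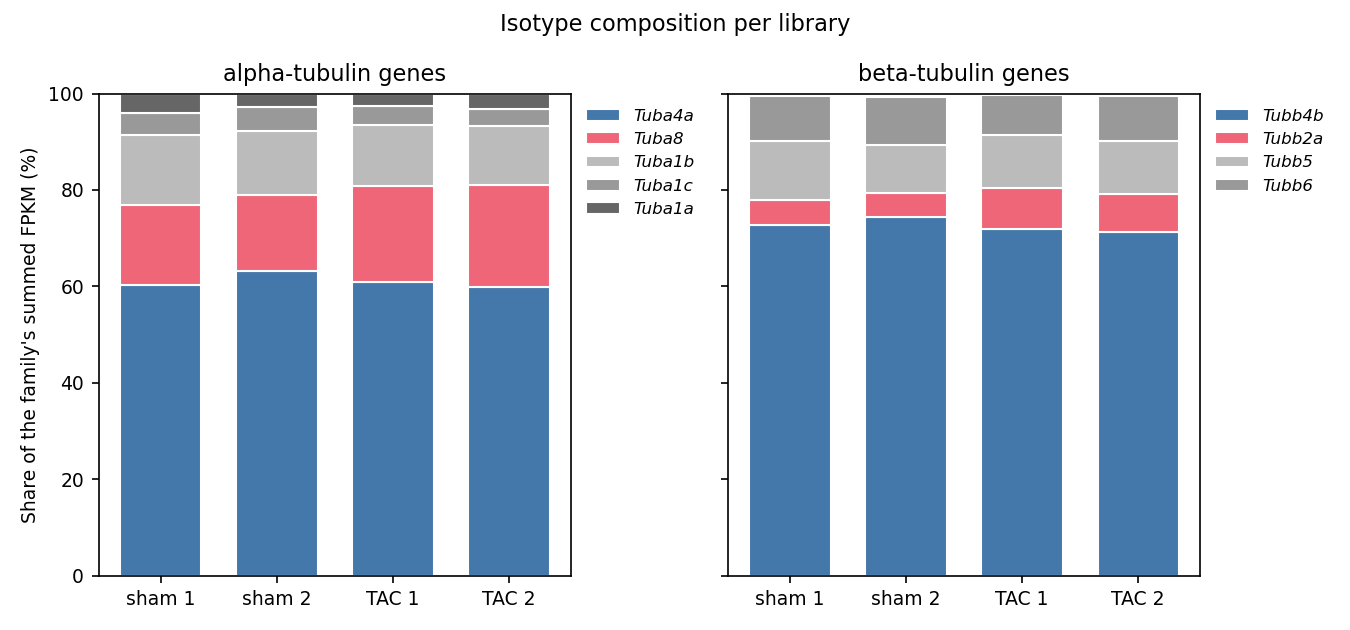
Share (%) of each alpha-tubulin gene (left) and beta-tubulin gene (right) in the summed deposited FPKM of its family, 1 bar per library; genes under 1% are not drawn. The Tuba8 segment is 15.7% to 16.6% in sham and 19.9% to 21.3% in TAC, and the Tubb2a segment 5.08% to 5.1% in sham and 7.94% to 8.65% in TAC.

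Among the beta-tubulins, Tubb2a showed the largest change of all called members. Its sham libraries had 8.91 and 8.62 CPM, and its TAC libraries 20.8 and 18.6 CPM. Both TAC libraries were at more than the sum of the sham values, and the spread within each group was small beside the gap. The log2 fold change was 1.17 ± 0.12 (SE), a 2.25-fold rise, with an edgeR adjusted p of 0.00492. Under total-count scaling it was 0.97 (adjusted p = 0.0135), and the alternatives gave adjusted p-values of 4.39e-08 to 0.0243.

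Tubb2a (ENSMUSG00000058672, chr13:34074274-34078007) has a near-identical neighbour, Tubb2b. The ends of both coding sequences are shown because the reads of the genes could be exchanged. Their coding sequences are 96.5% identical, with a shared run of 551 bases.
Tubb2a, chr13:34074468-34074527, minus strand: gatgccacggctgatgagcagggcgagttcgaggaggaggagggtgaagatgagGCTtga
Tubb2b, chr13:34127471-34127530, minus strand: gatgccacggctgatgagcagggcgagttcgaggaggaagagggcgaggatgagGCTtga
Capitals mark the last codon, GCT in both. Expected counts of Tubb2a were 282.5, 247.64, 580.15 and 454.65, with the sham libraries first, and those of Tubb2b 21.5, 24.36, 19.85 and 18.35. In each library the sum of these genes was a whole number, at 304, 272, 600 and 473, so fragments had been split between them. As 1 feature the pair rose by 1.10 ± 0.11 on the log2 scale (edgeR adjusted p = 0.00509), so the rise of the pair did not depend on how the fragments were split. Its assignment to Tubb2a and not to Tubb2b does rest on that split, and the rule for it is not given. Tubb2b on its own had 0.695 to 0.834 CPM and was not called (-0.07 ± 0.39, edgeR adjusted p = 0.925).

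Tubb4b was the beta-tubulin with the most RNA per length. It had 127 and 125 CPM in sham 1 and 2, and 171 and 165 CPM in TAC 1 and 2. The groups were well apart, and the log2 fold change was 0.42 ± 0.07 (SE), a 1.34-fold rise, with an edgeR adjusted p of 0.0235. The call was lost under total-count scaling (0.23, adjusted p = 0.275), in both limma fits on FPKM (0.23 in each, adjusted p = 0.27 and 0.269) and without TAC 1 (0.40, adjusted p = 0.0703). Fam166a, which overlaps Tubb4b (ENSMUSG00000036752, chr2:25222160-25224702) on the other strand, had 1 count in sham 2 and 0 in the other libraries.

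Tubb5 and Tubb6 lay above sham in both TAC libraries but were not called in the main test. Tubb5, a beta-tubulin found in most cell types, had 35.2 and 27.1 CPM in the sham libraries and 42.9 and 42.3 in the TAC libraries. The sham libraries were far apart, with a log2 difference of 0.45 ± 0.12 that edgeR did not call (adjusted p = 0.0793). It passed in DESeq2 (adjusted p = 0.038), where 4.14% of genes with an adjusted p were called higher, and in edgeR with no low-count filter (adjusted p = 0.0132), where 4.41% were. The value turned on the sham libraries, at 0.65 without sham 1 (called, adjusted p = 0.00656) and 0.28 without sham 2 (adjusted p = 0.217). Tubb6 had 17.9 and 18.4 CPM in sham and 21.5 and 24.1 CPM in TAC (0.33 ± 0.10, edgeR adjusted p = 0.0997).

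Tubb4b held 72.8% and 74.3% of the beta-tubulin FPKM in sham 1 and 2, and 71.8% and 71.2% in TAC 1 and 2, lower with no overlap. The Tubb2a share was 5.08% and 5.1% in the sham libraries and 8.65% and 7.94% in the TAC libraries, a difference of 3.21 percentage points with no overlap. Tubb5 stood at 9.9% to 12.2% and Tubb6 at 8.18% to 9.97% over the 4 libraries, and in both the groups overlapped. The remaining beta-tubulins, which are those of platelets (Tubb1) and of neurons (Tubb3 and Tubb4a) and Tubb2b, each held under 0.4% of the family. Tubb4a had 7 to 17 counts per library (-0.73 ± 0.51, edgeR adjusted p = 0.379), Tubb3 had 3 to 4 and Tubb1 0 to 1.

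As whole families, alpha- and beta-tubulin RNA had similar differences between groups. Summed alpha-tubulin FPKM was 296 and 282 in sham and 329 and 352 in TAC, and summed beta-tubulin FPKM was 120 and 109 in sham and 130 and 147 in TAC. Both sums were higher in both TAC libraries. The same held on the total-count scale, with 572 and 550 against 646 and 685 CPM of the whole library for alpha and 209 and 187 against 224 and 254 for beta. The ratio of alpha to beta FPKM was 2.47 and 2.59 in sham and 2.53 and 2.4 in TAC, which overlapped.

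The gamma-tubulins, which nucleate new microtubules, did not pass the test. Tubg1 had 15.6 and 14.5 CPM in sham and 16.2 and 15.6 in TAC, with TAC 2 level with sham 1 (0.07 ± 0.11, edgeR adjusted p = 0.687). Tubg2 had 1.08 to 1.68 CPM, with a difference of 0.20 ± 0.35 on the log2 scale (edgeR adjusted p = 0.741). Their coding sequences are 93.3% identical, and as 1 feature they gave 0.08 ± 0.10 (edgeR adjusted p = 0.633).

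Of the genes of the tyrosine cycle, Ttl, Svbp and Vash1 were tested and none was called; the detyrosinating enzyme genes Matcap1 and Matcap2 were not found under these symbols and were not analysed here. Ttl, the enzyme known to put the tyrosine back, had 17.2 and 16.2 CPM in sham and 19 and 18.9 in TAC. The groups did not overlap, but the difference of 0.18 ± 0.10 was not called (edgeR adjusted p = 0.285), and it became -0.01 under total-count scaling. Svbp had 2.47 and 3.72 CPM in sham and 3.95 and 4.05 in TAC (0.37 ± 0.25, edgeR adjusted p = 0.358), and the difference was 0.10 without sham 1 and 0.70 without sham 2. Vash1 had 2.64 to 3.22 CPM with mixed groups (-0.02 ± 0.23, edgeR adjusted p = 0.961), and Vash2 had 2 to 5 counts per library and was not tested. With no low-count filter the difference in Vash2 was 0.68 ± 1.27 (SE) on the log2 scale (edgeR adjusted p = 0.781).

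Of the 13 Ttll genes, 6 were tested and 1 was called. Ttll7, a ligase that adds glutamate mainly to beta-tubulin, had 10.1 and 12.3 CPM in sham 1 and 2 and 18.9 and 16.7 in TAC 1 and 2. Both TAC libraries were above both sham libraries, and the log2 fold change was 0.67 ± 0.14 (SE), a 1.59-fold rise, with an edgeR adjusted p of 0.0405. The call was lost under total-count scaling (0.48, adjusted p = 0.1), total counts without mitochondrial genes (0.57, adjusted p = 0.0523) and limma on log2(FPKM + 0.1) and log2(FPKM + 1) (0.36 and 0.26, adjusted p = 0.369 and 0.361). It was lost as well without sham 1 (0.54, adjusted p = 0.0763) and without TAC 1 (0.58, adjusted p = 0.125). Ttll7 (ENSMUSG00000036745) spans chr3:146852367-146984009.

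The other measured Ttll genes had fold changes of both signs and none passed the main test. Ttll12, a relative for which no ligase activity is settled, had 6.48 and 5.56 CPM in sham and 8.82 and 8.55 in TAC. Its groups did not overlap (0.53 ± 0.15, edgeR adjusted p = 0.0852), and it passed with no low-count filter (adjusted p = 0.0452). The glutamylase Ttll11 had 1.17 and 1.18 CPM in sham and 2.04 and 2.04 in TAC, from 34 to 57 counts (0.80 ± 0.29, edgeR adjusted p = 0.133).

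Ttll1, the catalytic subunit of the main tubulin polyglutamylase complex, had 27.7 and 26.8 CPM in sham and 26.8 and 25.9 in TAC. By FPKM it was the most abundant Ttll gene, at 12 to 15.5, and it was nearly level between groups (-0.05 ± 0.09, edgeR adjusted p = 0.745). Ttll4 had 14.1 and 15.1 CPM in sham and 13.6 and 13.5 in TAC (-0.11 ± 0.11, edgeR adjusted p = 0.559). Ttll5 had 8.06 and 8.93 CPM in sham and 7.53 and 7.77 in TAC (-0.15 ± 0.14, edgeR adjusted p = 0.515). These 3 glutamylases were slightly lower in both TAC libraries, by less than the test could separate from the spread.

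In all, 12 members were too low to test. Ttll2, Ttll6, Ttll8, Ttll9, Ttll10 and Tuba3a had 0 counts in every library, which allows up to 3 counts, or 0.0948 to 0.123 CPM. Ttll13 had 0 to 5 counts, Ttll3 had 4 to 8.01, and Tuba3b 3 to 7. The ligases known to add glycine, Ttll3, Ttll8 and Ttll10, are all in this low group.

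**Figure D3:**
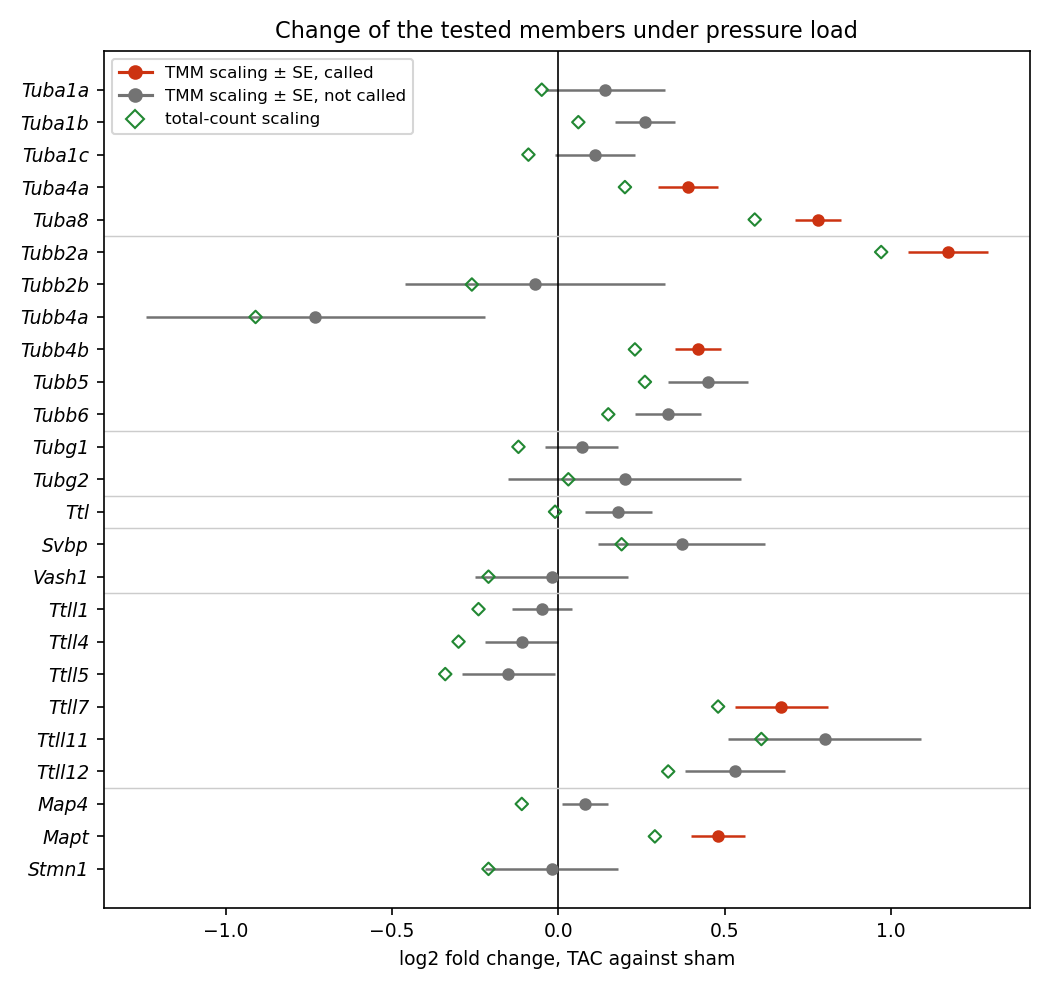
Log2 fold change (TAC against sham) of the 25 tested members, with circles and SE bars for TMM scaling, red where called, and open green diamonds for total-count scaling. Diamonds lie to the left of the circles throughout, and under both scalings Tubb2a (1.17 and 0.97) is the most positive.

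Of the 3 proteins that bind microtubules or tubulin, 1 was called. Mapt encodes tau, which binds along microtubules and is best known from neurons. Its level was 87.3 and 81.3 CPM in sham 1 and 2 and 120 and 115 CPM in TAC 1 and 2, and no TAC library came near a sham library. The log2 fold change was 0.48 ± 0.08 (SE), a 1.39-fold rise, with an edgeR adjusted p of 0.02. The call was lost under total-count scaling (0.29, adjusted p = 0.197), in both limma fits on FPKM (0.31 and 0.30, adjusted p = 0.235 and 0.232) and, narrowly, without TAC 1 (0.45, adjusted p = 0.0528). Mapt (ENSMUSG00000018411) spans chr11:104231390-104332090.

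Nerve and glial markers were low beside this level of Mapt. The 14 markers summed to 9.01 and 9.21 CPM in sham and 8.25 and 9.37 in TAC, and Uchl1 alone gave 4.14 to 5.4 CPM of that. Uchl1 was higher in both TAC libraries but not called (0.30, edgeR adjusted p = 0.304). Prph had 0 counts in both TAC libraries and 1 in each sham library, and Nefl had 0 in both sham libraries and 4 and 3 in TAC 1 and 2. Of these 14 genes 5 were tested, and 0 were called in either direction.

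Map4, the main microtubule-associated protein of muscle, had 294 and 313 CPM in sham and 315 and 325 in TAC. It did not pass (0.08 ± 0.07, edgeR adjusted p = 0.527), and its fold change was -0.11 under total-count scaling. By FPKM, Map4 stood at 66.7 to 79.4 and Mapt at 21.5 to 30.4, so Map4 was the more abundant of the pair in every library. Stmn1, which binds free tubulin dimers, had 5.18 to 6.92 CPM with mixed groups (-0.02 ± 0.20, edgeR adjusted p = 0.956).

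Markers of endothelial cells, fibroblasts, mural cells and leukocytes had lower values in TAC, where the called members were higher. Endothelial markers summed to 527 to 669 CPM in sham and 319 to 446 in TAC, and fibroblast markers to 372 to 537 in sham and 207 to 288 in TAC. Mural markers summed to 758 to 796 CPM in sham and 440 to 579 in TAC, and leukocyte markers to 74.1 to 145 in sham and 39 to 73.3 in TAC. All 46 tested markers of these 4 lists had a negative fold change, and 9 of them were called lower. The 12 markers of dividing cells summed to 22.2 to 28.8 CPM in sham and 14.7 to 16.2 in TAC, and Cenpf was the called one among them (-1.51, edgeR adjusted p = 0.0059). Without Cenpf this list summed to 11.1 and 5.32 CPM in sham and 9.58 and 9.16 in TAC, and of its 7 tested genes 2 had a negative fold change, with a median of 0.24. The part of these cells in the changes of the tubulin genes was not tested.

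Outside the members, 80 further genes of microtubule biology were looked up, of which 78 were in the files under the listed symbols and 68 were tested. Of these, 4 were called, 3 higher and 1 lower, a share near the 5.01% of all genes, and the median of the 68 log2 fold changes was -0.01, the same as that of all genes. Fign, which encodes the microtubule-severing enzyme fidgetin, had 8.06 and 9.52 CPM in sham and 2.51 and 3.07 in TAC. Both TAC libraries were far below both sham libraries (-1.66 ± 0.19, edgeR adjusted p = 0.00669), and it was called under total-count scaling as well.

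The 3 genes that rose were among the 15 tested plus-end and motor genes, of which 12 were not called. Clip1 encodes CLIP-170, a plus-end protein that recognises the alpha-tubulin tyrosine, and had 256 and 264 CPM in sham and 373 and 356 in TAC (0.49 ± 0.07, edgeR adjusted p = 0.0173). Kif5b, a kinesin-1 heavy chain, had 147 and 157 CPM in sham and 211 and 197 in TAC (0.43 ± 0.08, edgeR adjusted p = 0.0282). Mapre2, the end-binding protein EB2, had 74 and 76.6 CPM in sham and 96.9 and 92.7 in TAC (0.33 ± 0.07, edgeR adjusted p = 0.0467). In all of them the groups did not overlap, and none of them stayed called under total-count scaling (adjusted p = 0.155, 0.241 and 0.503). Of the 13 alternatives, 10 called Clip1, 8 called Kif5b and 5 called Mapre2, which lost its call without sham 1 (0.31), without sham 2 (0.36) or without TAC 1 (0.30).

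Apart from the plus-end and motor genes and the class of destabilisers and severing enzymes, which holds Fign, no class held a gene called in the main test. The 7 folding cofactors, which assemble the alpha-beta dimer, had a median log2 fold change of 0.20, with the largest value in Tbca (0.43 ± 0.14, edgeR adjusted p = 0.113). The 8 genes of the gamma-tubulin ring complex had a median of -0.05. Of the microtubule-associated proteins and MARK kinases, 15 were tested, 11 had a negative fold change and the median was -0.25. Among them Mtus2 had 107 and 99 CPM in sham and 92.1 and 81.4 in TAC (-0.25 ± 0.09, edgeR adjusted p = 0.129), and it was called lower only in the limma fits on FPKM (-0.58 and -0.56, adjusted p = 0.0488 and 0.0464). Ttc5 and Scaper, which act in the decay of tubulin mRNA when free tubulin is in excess, had fold changes of -0.05 and -0.13. Among the other modifying enzymes, the deglutamylase Agtpbp1 had 82.8 and 95.1 CPM in sham and 68.1 and 71.2 in TAC and missed the threshold (-0.35 ± 0.09, edgeR adjusted p = 0.0634). It was called lower in 5 of 13 alternatives, among them DESeq2 (-0.35, adjusted p = 0.0328) and the fit without sham 1 (-0.45, adjusted p = 0.0238), and was -0.24 without sham 2 (adjusted p = 0.213). The acetyltransferase Atat1 (0.04 ± 0.27) and the deacetylases Hdac6 (0.22 ± 0.13) and Sirt2 (0.15 ± 0.08) were not called.

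**Figure D4:**
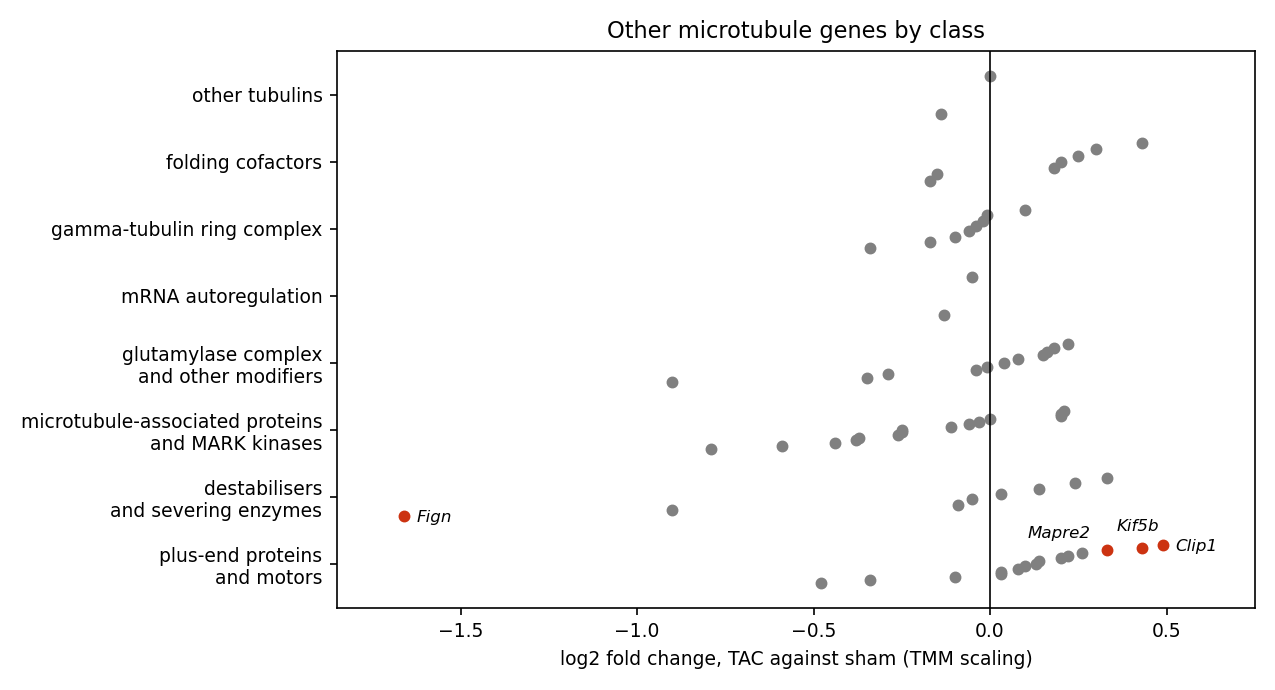
Log2 fold change (TAC against sham, TMM scaling) of the 68 tested microtubule genes that are no members, 1 point per gene, by class; red points were called. Fign lies alone at -1.66, and Mapre2, Kif5b and Clip1 lie between 0.33 and 0.49.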

How the data were processed

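Per the labels, RNA of 2 sham and 2 TAC cardiomyocyte samples was sequenced. The authors deposited, per library and gene, an expected count, which is an estimated count and can be fractional, and an FPKM value. The sources used here do not give how reads common to near-identical genes were assigned, or whether counting used strand. The submitters' processing notes name Bowtie2 2.2.8, StringTie 1.3.1 and the mm10 build. Library totals were 28844755, 27678165, 32118323 and 24237777 counts in sham 1, sham 2, TAC 1 and TAC 2.

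Expected counts were rounded, filtered with filterByExpr, scaled by TMM (factors 1.1, 1.04, 0.868 and 1.01) and tested with edgeR 4.0.16 (glmQLFit, glmQLFTest; R 4.3.3), TAC against sham, with Benjamini-Hochberg adjustment over 12499 genes. The SE was the log2 fold change divided by the square root of F. A gene was called at an adjusted p under 0.05. The common biological coefficient of variation was 10.5%, and the scripts were tested on simulated data. Replicates differed far beyond counting noise (chi-square per degree of freedom 9.19 in sham and 31.34 in TAC). The study speaks of pairs of sham and TAC mice, but nothing ties these to the sample numbers, and p-values measure the spread between these samples only. The SEs and SDs likewise reflect the spread between these samples only, and the floors for 0 counts cover counting error only.

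Members and lists were chosen with earlier results of these data known. All members are named; those called in any 4-library fit, or with a mean of at least 10 CPM, are given per library. Called pathway genes are named, and uncalled genes named beside them were chosen after their values were seen. Gene positions, overlaps and coding sequences came from GENCODE M21 (GRCm38), 1 transcript per gene, with identity over a global alignment. Some sequences and 1 marker gene are not reported here. Alternatives were total counts (with and without mitochondrial genes), median-of-ratios scaling, no low-count filter, DESeq2 1.42.0, limma 3.58.1 on log2(FPKM + 0.1) and log2(FPKM + 1), leaving out each library, and a replicate block. A crossed pairing of the replicate numbers, added after the data were seen, is counted among the 13.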

Additional observations from a re-analysis of the deposited data

How the results depend on the processing

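The count of 6 called members was 2 under total-count scaling, 2 under limma on log2(FPKM + 0.1) and 2 on log2(FPKM + 1), and 2 to 6 when each library was left out, the 2 being without TAC 1. Tubb2a and Tuba8 made up the count of 2 each time. Without mitochondrial genes in the total it was 4, with median-of-ratios scaling 6, with DESeq2 7 and with no low-count filter 8. Of the other pathway genes, 4 were called in the main test, 1 under total-count scaling, 2 under either limma fit (Fign and Mtus2, lower) and 2 to 4 with a library left out, again lowest without TAC 1. Markers of other cells went from 10 called to between 2 and 37 with a library left out, and to 12 under total-count scaling.

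Over all genes, 626 calls became 1676 with no filter, 195 and 214 under the limma fits, 301 without TAC 1 and 1336 without TAC 2. Under total counts the median of all genes was -0.20, without mitochondrial genes -0.11, and under the limma fits -0.19 and -0.13. For 38 tested members and pathway genes named in the text (all but Fignl1), 37 of 497 alternative values lost a call and 14 gained one. None of the called values among them changed sign, and sign changes of genes not called were counted as unchanged. DESeq2 gave no adjusted p for Tubb2b, Tubb4a and Tubg2. The difference in the Tuba4a share, -1.35 points, was -1.96 in shares of expected counts, -2.83 without sham 1 and 0.125 without sham 2, so its direction rested on 1 sham library. That of Tubb4b was -2.82 to -1.32 with a library left out.

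With the replicate number as a block, 5 members (Tuba4a lost, adjusted p = 0.0759) and 3 pathway genes (Mapre2 lost, adjusted p = 0.0861) were called, and 566 genes in all. Nothing ties the numbers to pairs of mice, and same-numbered deviations correlated at -0.242. Under a crossed pairing, added after the data were seen, 8 members, 6 pathway genes (Stmn2 among them, -0.90, adjusted p = 0.0435) and 2131 genes were called. With 2 libraries per group, calls near the threshold rest on the spread pooled over genes, and SEs under 10 CPM reached 0.51 among the members (Tubb4a) and 0.71 among the pathway and marker genes (Fignl1).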
